A study of Mus musculus with 22 samples.

Results

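The serum amyloid A genes of the mouse, Saa1, Saa2, Saa3 and Saa4, were chosen by gene name. Each is read by 1 probe, so these are 4 of the 20018 genes named on the array and 4 of its 55681 probes. All 4 were followed in lungs taken 24 h after instillation of Mitsui7, a multi-walled carbon nanotube. Saa1 and Saa3 rose at all 3 doses, Saa2 passed the test at 162 µg and had positive estimates short of it at 18 and 54 µg, and Saa4 gave almost no signal above background in any group. For Saa1 and Saa3 the test results at 18 and 54 µg depended on the processing. The results of Saa1, Saa2 and Saa3 at 162 µg held under every alternative except no normalization.

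Serum amyloid A (SAA) proteins are small apolipoproteins of the acute phase response. Interleukin 6, interleukin 1 and tumour necrosis factor switch on their genes through the transcription factors STAT3, C/EBP and NF-kB. Saa1 and Saa2 are the main acute phase forms made by mouse liver, Saa3 is the form best known outside the liver, in macrophages, fat cells and epithelia, and Saa4 is described as constitutive. Secreted SAA travels in blood on high-density lipoprotein (HDL), displaces apolipoprotein A-I from it, and is reported to act on the receptors Fpr2, Tlr2 and Tlr4 and on the scavenger receptors Scarb1 and Cd36.

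The animals were female C57BL/6 mice, instilled at 8 weeks of age under anaesthesia through the trachea, once, with 18, 54 or 162 µg of Mitsui7. Control mice received the same vehicle, saline with a share of lavage fluid, so anaesthesia, intubation and vehicle were common to all groups. The labels speak of 6 mice per group, and the arrays analysed here came from 5 controls, 6 mice at 18 µg, 5 at 54 µg and 6 at 162 µg. RNA of the right lung was labelled with Cy5 and hybridised beside a Cy3-labelled reference RNA made from 11 mouse cell lines, so a log2 ratio is the lung level over that reference. As this is whole lung tissue, a change in the number of cells of one type and a change in RNA per cell cannot be told apart. The 22 arrays lay on 7 slides, of which 5 held a control and 2 held none, and each slide was 1 scan. The lung markers Sftpc, Scgb1a1, Ager, Cldn18 and Lamp3 were well above background on 22 of 22 arrays.

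On the chromosome the genes stand side by side, in the order Saa3, Saa4, Saa1 and Saa2 by RefSeq position, with Saal1 before them and Hps5 after. The windows of 250 bases before each RefSeq start (assembly GRCm38.p6) are shown because Saa1 and Saa2, which are read by separate probes, have nearly the same promoter. They are written 5′ to 3′ on the gene's strand, with matches to the C/EBP motif TTNNGNAA in capitals. The windows are chr7:46742981-46743230 on the minus strand for Saa1, chr7:46751583-46751832 on the plus strand for Saa2, chr7:46715677-46715926 on the minus strand for Saa3 and chr7:46732604-46732853 on the minus strand for Saa4.
Saa1: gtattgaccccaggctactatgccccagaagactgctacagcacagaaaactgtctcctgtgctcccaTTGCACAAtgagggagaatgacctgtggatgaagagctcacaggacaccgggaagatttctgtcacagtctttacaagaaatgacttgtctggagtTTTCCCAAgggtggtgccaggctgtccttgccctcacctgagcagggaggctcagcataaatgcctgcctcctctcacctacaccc
Saa2: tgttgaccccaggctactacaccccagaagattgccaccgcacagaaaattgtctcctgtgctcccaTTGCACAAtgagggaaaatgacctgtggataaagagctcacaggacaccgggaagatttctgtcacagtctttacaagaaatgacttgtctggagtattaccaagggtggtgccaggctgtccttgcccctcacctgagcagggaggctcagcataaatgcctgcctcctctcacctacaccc
Saa3: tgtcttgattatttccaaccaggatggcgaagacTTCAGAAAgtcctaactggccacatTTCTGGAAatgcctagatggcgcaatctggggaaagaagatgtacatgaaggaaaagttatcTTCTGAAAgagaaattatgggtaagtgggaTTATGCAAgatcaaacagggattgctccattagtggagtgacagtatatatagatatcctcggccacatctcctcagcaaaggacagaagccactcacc
Saa4: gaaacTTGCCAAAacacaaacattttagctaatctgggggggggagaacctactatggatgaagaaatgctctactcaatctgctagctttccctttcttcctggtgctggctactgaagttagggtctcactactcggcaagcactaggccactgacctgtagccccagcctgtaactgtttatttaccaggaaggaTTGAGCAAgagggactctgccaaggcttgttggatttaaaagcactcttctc

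Saa1 and Saa2 shared 238 bases over 251 aligned columns, an identity of 94.8%, while every other pair had between 44.7% (Saa2 and Saa4) and 50.6% (Saa2 and Saa3). On either strand, TTNNGNAA matched at 4 places in the Saa3 window, 2 in Saa1, 1 in Saa2 and 2 in Saa4. It also occurs in 36.8% of all 32851 RefSeq promoter windows of this length, so a match is a description of the letters and no sign of a site in use. TTCNNNGAA (STAT), the NF-kB consensus and TATAAA had no match in the 4 windows, against 7.02%, 7.25% and 12.4% of all windows, which says only that these letters are not there. In RefSeq each of Saa1 and Saa2 lists the other's symbol as an older synonym, and the files hold no probe sequences, so how far the Saa1 and Saa2 probes read each other's transcript could not be checked.

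Of the 4 genes, Saa3 had the largest estimated change at each dose. Its log2 ratios were -4.18, -1.93, -3.83 and -3.43 in 4 controls. They ran from -1.43 to 2.10 with a median of 1.41 at 18 µg, were 1.85, 1.74, 0.30, 2.46 and 2.95 at 54 µg, and ran from 2.30 to 3.74 with a median of 3.08 at 162 µg. All treated mice lay above these 4 controls at each dose. The fifth control, replicate 3, was not among them, because its Saa3 spot carried the scanner software's mark for an uneven Cy3 spot.

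That left-out spot was not dim. Its Cy5 signal was 6996 intensity units, against 226 to 1104 in the other 4 controls, and its log2 ratio with the mark ignored was 0.34. Control replicate 3 was also the highest control for Saa1 and Saa2, whose spots carried no such mark. With marked spots kept, the number of mice above all 5 controls for Saa3 fell to 4 of 6 at 18 µg and 4 of 5 at 54 µg, and was 6 of 6 at 162 µg. A control lung with a high SAA level is therefore missing from the Saa3 comparison as fitted.

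In limma with dose and slide, Saa3 rose 19.3-fold at 18 µg (95% interval 7.16 to 51.8, adjusted p = 0.0114), 34.9-fold at 54 µg (11.5 to 106, adjusted p = 0.0133) and 82.7-fold at 162 µg (29.4 to 232, adjusted p = 0.000179). On the log2 scale these are 4.27 (SE 0.67), 5.13 (SE 0.76) and 6.37 (SE 0.70). With the marked spots kept they became 3.73 (adjusted p = 0.0257), 4.30 (adjusted p = 0.0407) and 5.61 (adjusted p = 0.000464), so the calls held with lower estimates. Ordered from the largest increase down, Saa3 ranked 1 of 16433 expressed genes at each dose in the limma fit with marked spots left out.

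**Figure D1:**
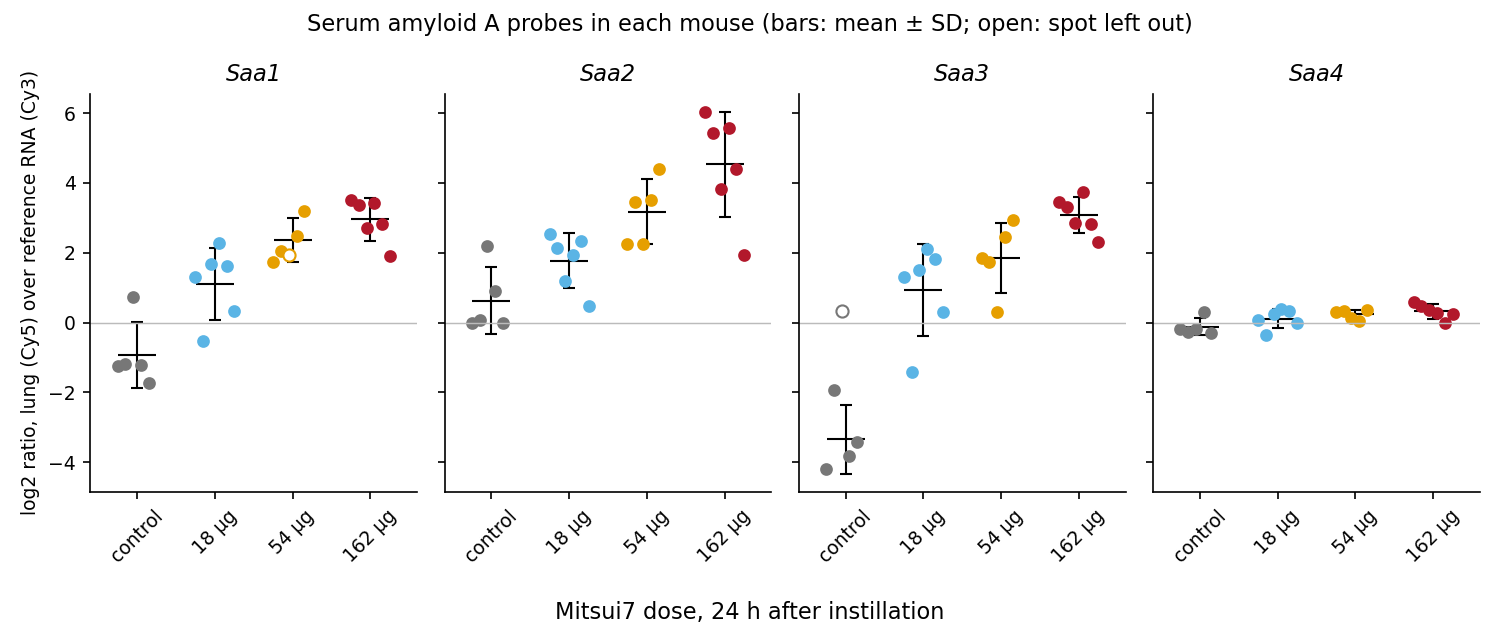
Log2 ratio of lung (Cy5) over reference RNA (Cy3) for each mouse, by dose, in 1 panel per gene. Filled points entered the fit, open points are the 2 spots left out, and bars are the mean and SD of the filled points. Control replicate 3 is the highest control for Saa1 (0.73) and Saa2 (2.20), and its open Saa3 point (0.34) lies far above the other 4 controls.

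Saa1, the first of the liver-type pair, had log2 ratios of -1.23, -1.19, 0.73, -1.23 and -1.73 in the controls. They ran from -0.54 to 2.29 with a median of 1.46 at 18 µg, were 1.74, 2.06, 2.48 and 3.19 in the 4 mice with a value at 54 µg (replicate 3, at 1.95, was left out for an uneven spot), and ran from 1.92 to 3.52 with a median of 3.09 at 162 µg. At 54 and 162 µg every mouse with a value lay above every control, while at 18 µg 4 of 6 did, replicates 2 and 6 being below control replicate 3. The fold changes were 4.14 (95% interval 2.09 to 8.18, adjusted p = 0.0428), 9.69 (4.54 to 20.7, adjusted p = 0.0176) and 13.4 (6.77 to 26.5, adjusted p = 0.000339). The call at 18 µg was the least steady of these: it was lost in 14 of 22 fits that left out 1 mouse, with log2 changes between 1.77 and 2.50.

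Saa2, its near twin, had log2 ratios of 0.00, 0.07, 2.20, 0.90 and -0.02 in the controls. They ran from 0.48 to 2.55 with a median of 2.04 at 18 µg, were 2.26, 3.46, 2.25, 3.51 and 4.41 at 54 µg, and ran from 1.93 to 6.03 with a median of 4.92 at 162 µg. The groups overlapped at 18 µg, where 2 of 6 mice exceeded all controls, and at 162 µg 5 of 6 did, replicate 6 lying below control replicate 3. Saa2 passed the test at 162 µg, with a fold change of 16.5 (95% interval 6.84 to 39.6, adjusted p = 0.000876). At 18 µg the log2 change was 1.49 (SE 0.60, adjusted p = 0.235) and at 54 µg 2.76 (SE 0.64, adjusted p = 0.108).

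The Saa2 ratio rests on a faint reference signal. Its Cy3 spot was well above background on 1 of 5 control arrays, 1 of 6 at 18 µg, 2 of 5 at 54 µg and 3 of 6 at 162 µg, and its Cy5 spot on 3 of 5 control arrays and on every treated one. In the Cy5 channel alone, scaled to each array's 75th percentile, the log2 changes were 1.83 (adjusted p = 0.0487), 2.49 (adjusted p = 0.0193) and 3.76 (adjusted p = 1.52e-05), so there Saa2 passed the threshold at all 3 doses.

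Saa4, the constitutive member, stayed near background. Its Cy5 signal was 71.5 to 110.5 intensity units in the controls and 76.5 to 130.5 in treated mice, while the level that marks a spot as detected ran from 74.5 to 101 across arrays. It was well above background on 1 of 5 control arrays, 0 of 6 at 18 µg, 2 of 5 at 54 µg and 1 of 6 at 162 µg. The fitted log2 changes were 0.25 (adjusted p = 0.450), 0.38 (adjusted p = 0.464) and 0.44 (adjusted p = 0.0786), none past the threshold. It counted as expressed through the negative control limit, which it passed on 2 of 5 control arrays and 6 of 6 at 162 µg. Signals this close to background set no limit on a change in Saa4 transcript.

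A gene was called where limma's adjusted p was at most 0.05, the change at least 1.5-fold and the gene expressed, that is, above the negative controls in Cy5 on at least 80% of a group's arrays. Of the 4 SAA probes 2 were called higher at 18 µg, 2 at 54 µg and 3 at 162 µg. Among the 16433 expressed genes 0.633% were called higher at 18 µg, 0.219% at 54 µg and 3.32% at 162 µg, and 1.42%, 0.134% and 3.53% were called lower. Every treated mouse lay above every control for 1.42% of expressed genes at 18 µg, 1.51% at 54 µg and 3.72% at 162 µg. For the SAA genes this held for Saa3 at 18 µg, for Saa1, Saa2 and Saa3 at 54 µg, and for Saa1 and Saa3 at 162 µg, and for Saa3 at 18 and 54 µg only with control replicate 3 left out. The same controls serve all 3 doses, so the comparisons are not independent of one another. Counts at an unadjusted p under 0.05, given below, include changes in either direction. No share over all expressed genes stands beside them, so they are not read as a result about a list.

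**Figure D2:**
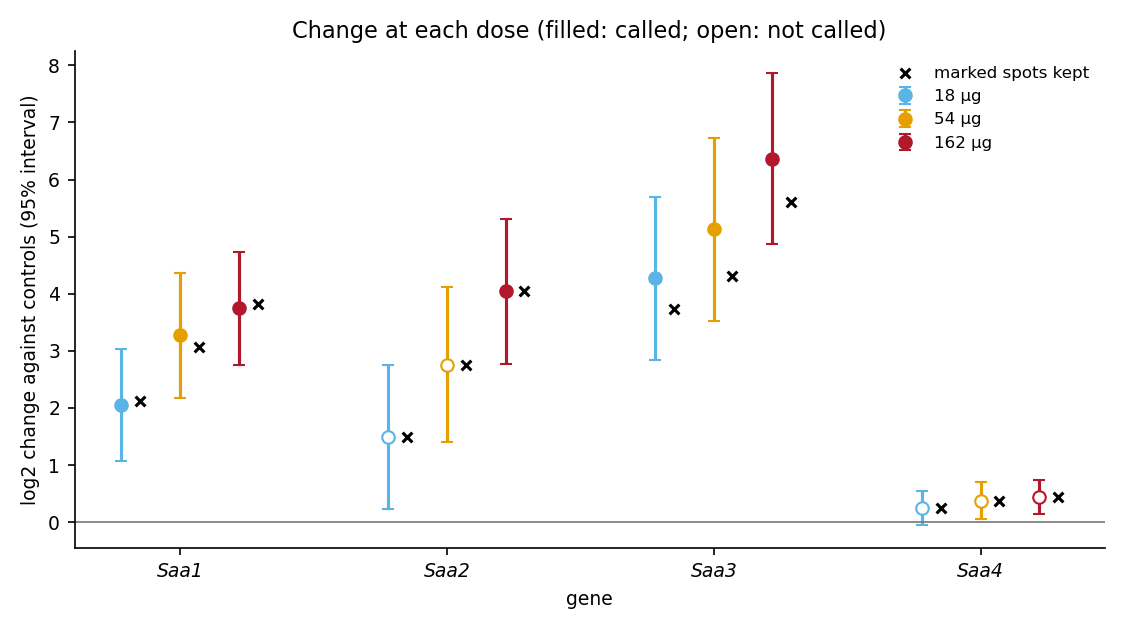
Log2 change against controls for each SAA gene at 18, 54 and 162 µg, with 95% intervals from limma. Filled points were called and open ones were not, and crosses give the estimate with marked spots kept. The Saa3 points (4.27, 5.13 and 6.37) are the highest and move down with marked spots kept (3.73, 4.30 and 5.61), while Saa4 stays between 0.25 and 0.44.

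Within a slide, where a treated mouse can be set against the control scanned with it, every difference from control was above 0 for Saa1, Saa2 and Saa3. For Saa1 the differences in log2 ratio ran from 0.65 to 3.34 over 4 slides at 18 µg, from 1.33 to 4.21 over 3 slides at 54 µg and from 2.63 to 4.70 over 4 slides at 162 µg. For Saa2 the ranges were 0.31 to 2.55, 1.26 to 3.53 and 2.94 to 5.96. For Saa3 they were 0.50 to 5.49 over 4 slides, 5.90 to 6.03 over 2 slides and 5.38 to 6.68 over 3 slides. The low value of Saa3 at 18 µg came from slide 2, which paired the highest of the 4 fitted controls, replicate 2, with the lowest mouse of the dose. Slide 3, with control replicate 3, gave 1.41 at 54 µg and 2.97 at 162 µg once its marked spot was kept.

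**Figure D3:**
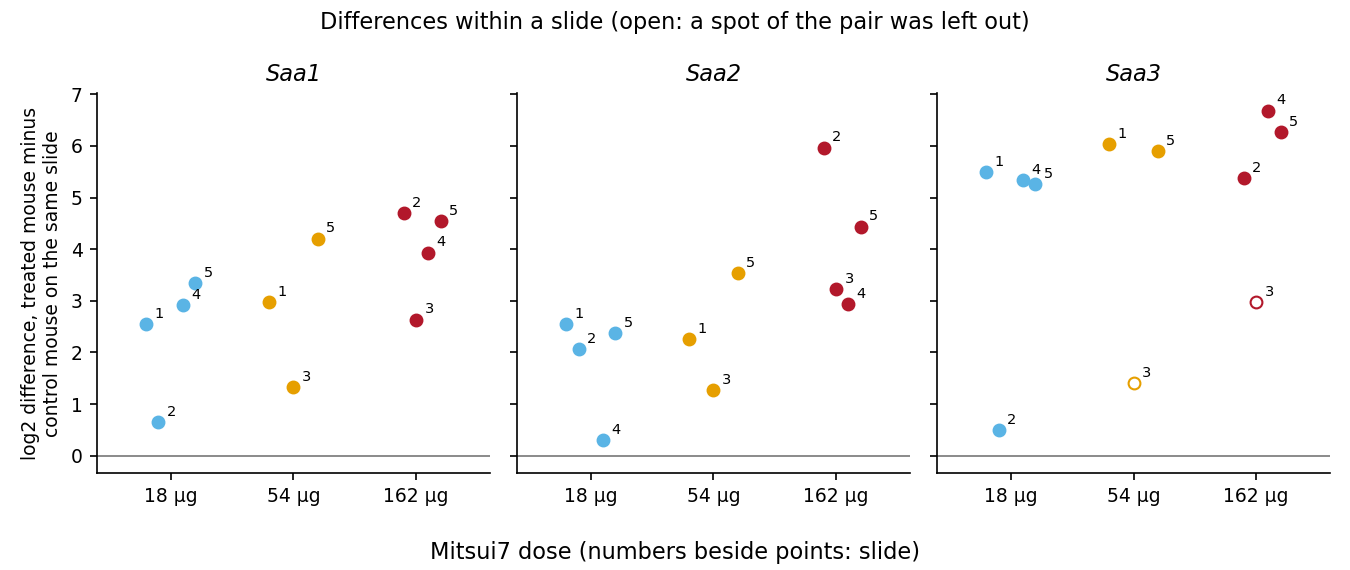
Difference in log2 ratio between a treated mouse and the control mouse on the same slide, for Saa1, Saa2 and Saa3 by dose, with the slide number beside each point. Open points use the marked control spot. All points lie above 0, and for Saa3 3 points (0.50 on slide 2 at 18 µg, and 1.41 and 2.97 on slide 3) lie below the rest (5.26 to 6.68).

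The SAA genes varied more between mice of a group than most genes. The SD within groups was 0.84 for Saa1, 1.09 for Saa2 and 1.00 for Saa3 in log2 ratio, against a median of 0.28 over expressed genes, and 98.5%, 99.4% and 99.2% of expressed genes had a smaller SD. With marked spots kept the SD of Saa3 was 1.24. The SD of Saa4 was 0.22. Some mice stood at one end of their group for Saa1, Saa2 and Saa3 alike: control replicate 3 was the highest control for each, with its Saa3 spot kept, 54 µg replicate 5 was the highest of its dose and 162 µg replicate 6 the lowest of its dose. At 18 µg no mouse did so: replicate 4 was the highest for Saa1 and Saa3 and replicate 1 for Saa2, while replicate 2 was the lowest for Saa1 and Saa3 and replicate 6 for Saa2. The lowest at 54 µg was replicate 1 for Saa1 and replicate 3 for Saa2 and Saa3. At 162 µg replicate 6 had Cy5 signals of 734.5 for Saa1, 171 for Saa2 and 3474 for Saa3, while the other 5 mice of its dose ran from 4204.5 to 23014, 925.5 to 6349 and 11175.5 to 52492. Cy5 signals are not normalized between arrays. In log2 ratio replicate 6 stood at 1.92, 1.93 and 2.30, and the other 5 ran from 2.71 to 3.52, 3.83 to 6.03 and 2.83 to 3.74.

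The increase of Saa3 was larger than that of Saa1 at each dose. The difference of their log2 changes, from a linear model of the per-mouse difference with dose and slide, was 1.78 (95% interval 0.90 to 2.66), 1.90 (0.86 to 2.93) and 2.08 (1.16 to 3.00) at 18, 54 and 162 µg, and 1.60, 1.23 and 1.80 with marked spots kept. Against Saa2 it was 2.55 (0.71 to 4.39), 2.03 (-0.04 to 4.09) and 2.01 (0.09 to 3.94), and 2.23, 1.55 and 1.57 with marked spots kept. Between Saa2 and Saa1 it was -0.66 (-1.84 to 0.51), -0.23 (-1.53 to 1.08) and 0.19 (-0.98 to 1.36), so their changes were not separable, with intervals that still allow differences of over 1 log2 unit either way at 54 µg. The Saa2 probe was well above background in Cy5 on only 3 of 5 control arrays, so both comparisons with it rest partly on control values near background.

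Between doses, 2 of 12 differences were called, both between 162 and 18 µg. Saa1 was higher at 162 µg by 1.70 on the log2 scale (SE 0.43, adjusted p = 0.0353) and Saa2 by 2.55 (SE 0.56, adjusted p = 0.0149). Saa3 differed by 2.10 (SE 0.60, adjusted p = 0.0623), or 1.89 (adjusted p = 0.159) with marked spots kept. In that comparison 3.33% of expressed genes were called higher.

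The single steps of dose were not resolved. From 18 to 54 µg limma called 0 of the 4 probes, with 2 at an unadjusted p under 0.05, and from 54 to 162 µg 0 of 4, with 1 under it. The background was 0.0183% of expressed genes called higher in the first step and 0% in the second. The differences were 1.23, 1.27 and 0.86 for Saa1, Saa2 and Saa3 in the first step and 0.47, 1.28 and 1.24 in the second. On slide 7 the mouse at 162 µg lay below the one at 54 µg for Saa1, Saa2 and Saa3, by differences of -1.27, -2.48 and -0.65.

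Liver genes gave strong signals in a few of the lungs, and those values belong beside Saa1 and Saa2, which liver makes in quantity. Albumin (Alb) had a Cy5 signal of 5915.5 intensity units in 162 µg replicate 1, 974 in 162 µg replicate 2 and 584 in 54 µg replicate 1, and 63 to 456 in the other mice. In 162 µg replicate 1 transthyretin (Ttr) stood at 634, Apoh at 527, Ahsg at 4583 and Serpina1c at 8627, also the highest of all mice. The sixth hepatocyte marker, Cyp2e1, did not follow them, with 2039 in this mouse, 19064.5 in 162 µg replicate 5 and 7327 in control replicate 4. The mouse with the most albumin signal had the highest Saa1 and Saa2 signals of the study, 23014 and 6349. Of 6 hepatocyte markers 4 were expressed and none was called at any dose by limma, with 2 at an unadjusted p under 0.05 at 162 µg and 0 at the lower doses. The mean log2 ratio of those 4 ran from 1.04 to 2.46 in the controls. At 18 µg it ran from 0.77 to 2.26, at 54 µg from 0.98 to 2.15, and at 162 µg from 0.61 to 3.62. This mean includes Cyp2e1, which did not follow the other markers and had the highest control mean of the 4 (3.38). The control means of Alb, Ahsg and Serpina1c were 0.89, 0.95 and 0.60.

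Saa1, Saa2 and Saa3 kept their calls at 162 µg without the arrays of high albumin signal. The part of liver RNA in the SAA signal was not tested. With the 3 arrays above 500 left out, a limit set after seeing the data, the log2 changes at 162 µg were 3.32 for Saa1 (adjusted p = 0.0136), 3.68 for Saa2 (adjusted p = 0.0279) and 5.99 for Saa3 (adjusted p = 0.00921). At 18 µg Saa1 stood at 1.99 (adjusted p = 0.0759), its call lost, and Saa3 at 4.19 (adjusted p = 0.0409). At 54 µg they were 3.30 for Saa1 (adjusted p = 0.0790) and 4.91 for Saa3 (adjusted p = 0.142), no longer past the threshold, from 4 mice. The differences between 162 and 18 µg lost their calls, at 1.34 for Saa1 (adjusted p = 0.245) and 2.23 for Saa2 (adjusted p = 0.131), and leaving out 162 µg replicate 1 alone was enough to end both, at 1.34 (adjusted p = 0.120) and 2.20 (adjusted p = 0.0623). In 162 µg replicates 3, 4 and 5, where the albumin signal was 63 to 86.5, Saa1 signals were 4204.5 to 9899.5. In 162 µg replicate 6, with albumin at 99, the Saa1 signal was 734.5, below the highest control signal (2394). These signals are not normalized between arrays, and the Saa1 log2 ratio of that mouse, 1.92, lay above every control (highest 0.73).

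**Figure D4:**
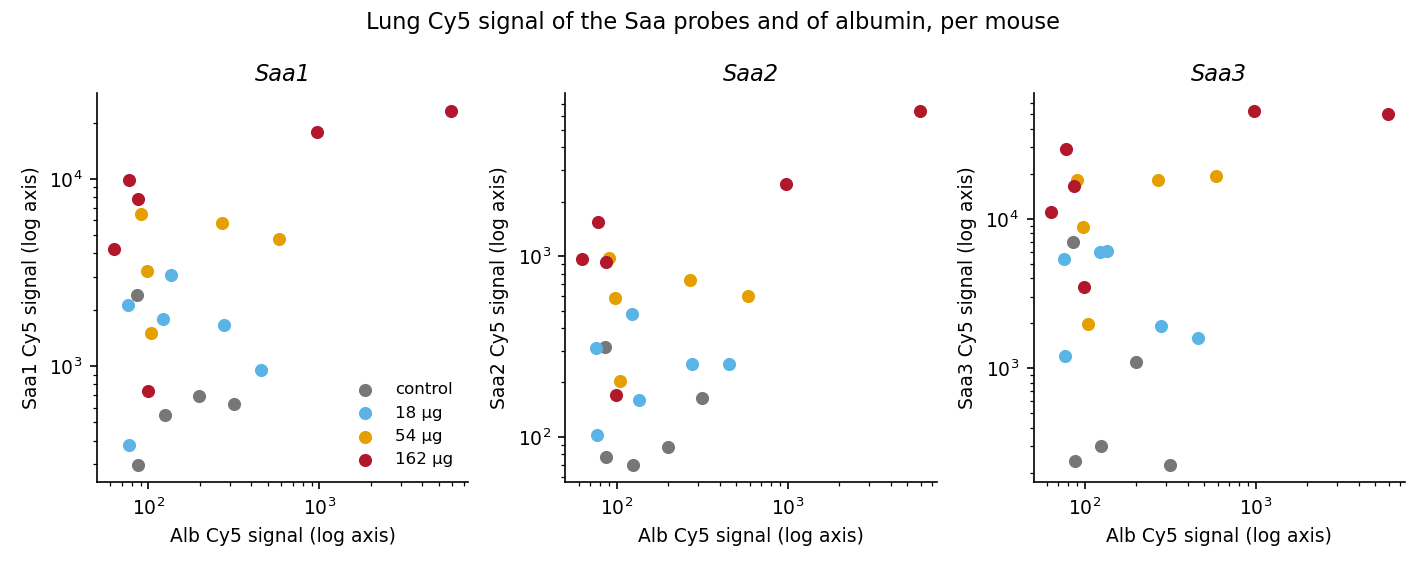
Cy5 signal of Saa1, Saa2 and Saa3 against the Cy5 signal of albumin in each mouse, on log axes, coloured by dose. The mouse at the far right is 162 µg replicate 1 (albumin 5915.5), and 3 other mice at 162 µg with albumin between 63 and 86.5 have Saa1 signals of 4204.5 to 9899.5, while the sixth, with albumin at 99, has 734.5. The signals are not normalized between arrays.

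The neutrophil gene S100a8 had its highest Cy5 signals in 162 µg replicate 2 (57593) and control replicate 2 (40029) and its lowest in 162 µg replicate 6 (502), the mouse with the lowest SAA of its dose. In control replicate 3, the control with high SAA, it was 2314. Such Cy5 signals are not normalized between arrays. None of 7 neutrophil markers was called at any dose by limma, with 1, 0 and 2 at an unadjusted p under 0.05, and their mean log2 ratio ran from 1.77 to 4.26 in controls and from 2.14 to 4.26 at 162 µg. Of 5 macrophage markers Chil3 was called higher at 18 µg (1.73, SE 0.41, adjusted p = 0.0457) and Marco at 162 µg (1.51, SE 0.28, adjusted p = 0.00460). The macrophage markers did not move together: at 162 µg Chil3 stood at 1.09, Mrc1 at 0.65, Itgax at -0.06 and Adgre1 at -0.41 (adjusted p = 0.197), none of them called. None of 4 adipocyte markers was called, with 0 at an unadjusted p under 0.05. Of 2 club cell markers Cyp2f2 was called lower at 162 µg (-1.004, SE 0.19, adjusted p = 0.00509) and Scgb1a1 was at -0.36 (adjusted p = 0.605). The part of these cells in the SAA signal was not tested.

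Among the cytokines that induce SAA, interleukin 6 was called at 162 µg and had positive estimates short of the threshold at the lower doses. Il6 was not well above background in any control and was so in 6 of 6 mice at 162 µg, where it was at least 8.38-fold higher (adjusted p = 0.00154). Il1b changed by 0.88, 1.26 and 1.38 on the log2 scale (adjusted p = 0.583, 0.675 and 0.274) and Tnf by 0.49, 0.38 and 0.39 (adjusted p = 0.0744, 0.407 and 0.0991). Of the 9 inducers on the list, 0, 0 and 1 were called higher at 18, 54 and 162 µg. In either direction, 2, 5 and 5 had an unadjusted p under 0.05. Ifng was among them at 54 and 162 µg and was lower, with log2 changes of -0.33 and -0.37. The median log2 change of the list at 162 µg was 0.29 against -0.01 over all expressed genes.

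Of 19 expressed genes for receptors and signalling upstream of SAA, 3 were called higher at 162 µg and none at the lower doses, where 2 and 7 had an unadjusted p under 0.05. They were Socs3, the STAT3-induced inhibitor of that pathway (1.28, SE 0.22, adjusted p = 0.00216), Cebpd, a C/EBP factor (1.91, SE 0.40, adjusted p = 0.00957), and Nfkbia, the inhibitor of NF-kB (0.99, SE 0.29, adjusted p = 0.0486). Myd88 (0.58, adjusted p = 0.0268) and Il6st (0.57, adjusted p = 0.0290) passed the p threshold at 162 µg and fell short of 1.5-fold. Stat3 itself changed by 0.28 (adjusted p = 0.245) and Cebpb by 0.30 (adjusted p = 0.520) at 162 µg. The list's median log2 change was 0.14, 0.25 and 0.28.

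Fpr2, Tlr2, Tlr4, Scarb1 and Cd36 were not called at any dose. Fpr2 changed by 0.10 (SE 0.25, adjusted p = 0.913) at 162 µg, Tlr2 by -0.01 (SE 0.19, adjusted p = 0.992) and Tlr4 by -0.27 (SE 0.16, adjusted p = 0.438), all as log2 changes. Scarb1 stood at 0.44 (SE 0.14, adjusted p = 0.0788) and Cd36 at 0.41 (SE 0.25, adjusted p = 0.445). Of 12 receptor genes 1 was called, Scarb2, a lysosomal scavenger receptor, at 162 µg (0.59, SE 0.13, adjusted p = 0.0119), and 0 at 18 and 54 µg, where 1 and 4 had an unadjusted p under 0.05. The 1 at 18 µg was Fpr1, which was lower (-0.44). At 54 µg Fpr1 (-0.51) and P2rx7 (-0.34) were lower, and Cd14 (0.83) and Scarb1 (0.37) were higher.

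Of 13 expressed genes of HDL and lipid transport, Abca1, the cholesterol exporter that loads HDL, was called lower at 18 µg (-0.86, SE 0.18, adjusted p = 0.0309). At 162 µg Abcg1, another exporter, was called lower (-0.60, SE 0.13, adjusted p = 0.0104), and Apod (1.63, SE 0.23) and Apoc3 (1.27, SE 0.36, adjusted p = 0.0465) higher. None was called at 54 µg, with 3 at an unadjusted p under 0.05. Pon1 was not called at any dose, with -1.78 at 18 µg (SE 0.44, adjusted p = 0.0525) and -1.25 at 162 µg (SE 0.44, adjusted p = 0.111). Apoa1, whose protein SAA displaces, was not expressed by the rule, being well above background on 0 of 5 control arrays and 2 of 6 at 162 µg.

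Several other acute phase genes rose as well. Of 26 expressed ones 4 were called higher at 18 µg, 4 at 54 µg and 10 at 162 µg, and none lower, with medians of 0.34, 0.76 and 0.77 against -0.02, -0.01 and -0.01 over all expressed genes. At 18 µg they were Lcn2, Serpina3m, C3 and Cfb, and at 54 µg Hpx, Serpina3m, Fgg and Mt2. The 10 at 162 µg were Orm1, Orm2, Orm3, Hpx, Lcn2, Serpina3n, Serpina3m, Fgg, Mt1 and Mt2. Without the arrays of high albumin signal, fewer genes of the SAA lists were called at 162 µg. Which genes of the acute phase and HDL lists kept their calls there is not given here. The largest change among the 10 was that of Mt2, a metallothionein, at 4.79 (SE 0.38, adjusted p = 5.01e-06), and Serpina3m, a serine protease inhibitor, rose by 3.64 (SE 0.24). Haptoglobin (Hp), a classical acute phase gene, changed by 0.11 (SE 0.21, adjusted p = 0.873).

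**Figure D5:**
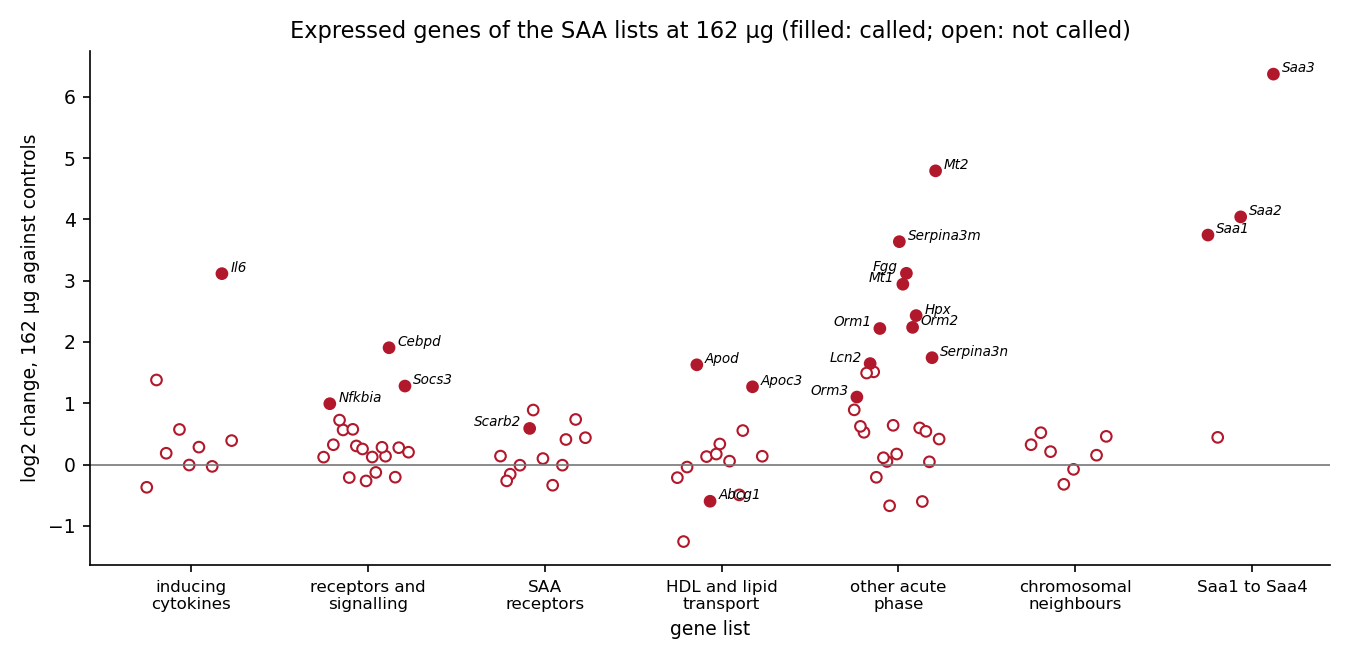
Log2 change at 162 µg against controls for expressed genes of the SAA lists, 1 point per gene. Filled points were called and carry the gene's symbol, and open ones were not. The right-hand column holds Saa1 (3.74), Saa2 (4.04), Saa3 (6.37) and the open point of Saa4 (0.44), and the other acute phase list holds 10 filled points. The Il6 point is the fitted value, which rests on controls that were not well above background.

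Of the 4 genes on each side of the SAA cluster, Kcnc1, Sergef, Tph1 and Saal1 before it and Hps5, Gtf2h1, Ldha and Ldhc after it, 7 were expressed and limma called 0 at each dose, with 0, 0 and 3 at an unadjusted p under 0.05. With 7 genes and a background of 3.32% called higher at 162 µg, a count of 0 says little. Sergef passed the p threshold at 162 µg but not the 1.5-fold limit (0.46, SE 0.10, adjusted p = 0.0107), with 6 of 6 mice above all controls, and Ldha, a lactate dehydrogenase subunit, stood at 0.52 (SE 0.16, adjusted p = 0.0794). The median log2 change of the 7 was 0.08, 0.06 and 0.21. Saal1, which lies next to Saa3 and is named for a likeness to SAA, changed by 0.08, -0.18 and -0.08, and Hps5, next to Saa2, by 0.03, -0.13 and -0.32.

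Across the arrays, the gene whose log2 ratios followed Saa1 most closely was Saa3, with a Pearson r of 0.973 over 20 arrays and 0.819 after each group's mean was taken off. Next came Ctps, the enzyme that makes CTP (0.952), the zinc transporter Slc39a14 (0.914), S100a6 (0.908), Mt2 (0.908) and Il6 (0.907). For Saa3 the closest after Saa1 were Ctps (0.940), Timp1 (0.904), Il6 (0.900), Cd63 (0.895) and Slc39a14 (0.894). With group means taken off, Ctps stood at 0.772 with Saa1 and 0.718 with Saa3, and Timp1 at 0.760 with Saa3. Saa2 ranked 13 for Saa1 (0.882, 0.648 without group means) and 30 for Saa3 (0.816, 0.386). The points share dose, slide and the reference RNA, so these values describe likeness of pattern over these arrays and nothing more.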

How the data were processed

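Right lung RNA (Cy5) of 22 mice was hybridised with Universal Mouse Reference RNA (Cy3) on Agilent arrays. Per the file headers, spot intensities came from Agilent Feature Extraction 10.7.3.1. The deposited series table holds the authors' processed log2 values, with normalization not given in the sources used here, column medians of -0.052 to -0.017 and, against the loess ratios, slopes of 0.588 to 0.996. Slopes below 0.8 were those of slides 5 and 6. Following the study's methods, median intensities without background subtraction were used, here with loess (span 0.3), spots marked as outliers left out, replicate spots reduced to their median, and dose and slide as terms in limma 3.58.1 (R 4.3.3), with Benjamini-Hochberg adjustment over 55681 probes. The expression threshold was the trimmed mean plus 3 trimmed SD of 308 negative control spots. For genes not above background, the bound was taken from the lowest signal well above background. The limma fit with dose and slide was tested on simulated data, for the highest dose against controls only. Probes were named by accession through RefSeq, for 26413 probes. SAA genes, members of the lists, the neighbours and the 5 most similar genes were named by rule, and members and lists were chosen with earlier results of these data known. Nothing says that mice came from separate experiments, so p-values measure the spread between these mice. The number of arrays limits the precision.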

Additional observations from a re-analysis of the deposited data

Results flagged for a closer look

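In the controls, replicate 3 stood apart for Saa1, with a log2 ratio of 0.73 while the other 4 lay between -1.73 and -1.19. The gap was 0.779 of the group's whole range, above Dixon's 95% critical value for 5 samples. Its Saa3 spot, which did not enter the fit, had a log2 ratio of 0.34, above the other 4 controls, whose highest was -1.93. For Saa4, a probe near background, control replicate 4 stood apart at 0.31, with a gap of 0.811 of the range. Chance gives such a gap in about 1 group in 20.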

How the results depend on the processing

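The increases of Saa1, Saa2 and Saa3 at 162 µg kept their calls in all 22 fits that left out 1 mouse and under every other alternative except no normalization, where they were 3.16, 3.51 and 5.55 on the log2 scale with 0 of 4 SAA probes called. The calls at 18 and 54 µg depended on the processing, and the cause was not tested. Below, pathway genes are those of the SAA lists, of which 5, 4 and 18 were called at 18, 54 and 162 µg. Loess kept the median change of all genes at -0.02, -0.01 and -0.01, while it was -0.26 and -0.19 at 18 and 162 µg with median centring, and -0.42, 0.13 and -0.21 at the 3 doses without normalization.

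At 18 µg Saa1 lost its call with normexp (2.01), median centring (1.52), no normalization (1.36), quantile normalization (2.11), the deposited table (1.96) and, chosen after seeing the data, without the arrays of high albumin (1.99). Saa3 at 18 µg lost it with median centring (3.64), no normalization (3.44), the deposited table (3.38) and only 2 groups in the fit (4.15). Called probes at 18 µg were then 0 or 1 of 4. At 54 µg Saa1 and Saa3 lost their calls with median centring (3.18 and 4.73), no normalization (3.36 and 4.83), the deposited table (2.84 and 3.73) and without the arrays of high albumin (3.30 and 4.91), leaving 0 of 4. Saa2 gained a call at 18 µg in Cy5 alone (1.83), and at 54 µg in Cy5 alone (2.49), with the replicate block (2.55) and with only 2 groups (2.35). Saa3 gained a call between 162 and 18 µg under 7 of 17 alternatives.

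Pathway genes called at 18 µg numbered 1 with median centring, 0 without normalization, with the deposited table, without a slide term and without the arrays of high albumin, 8 with slide as a random block, 3 with 2 groups or an intensity trend, and 2 with marked spots kept and control replicate 3 left out. At 54 µg they numbered 2 with normexp, 1 with median centring or the deposited table, 0 without normalization, 10 in Cy5 alone, 7 with a random slide or the replicate block, 21 with 2 groups, and 2 under either alternative chosen after seeing the data. At 162 µg they numbered 10 with median centring, 2 without normalization and 11 without the arrays of high albumin. SAA calls between doses, 2 of 12, became 0 with median centring, no normalization and without the arrays of high albumin, and 1 with quantile normalization or the deposited table. Differences near 0 changed sign: Saa1 between 162 and 54 µg to -0.000100 (median centring) and -0.20 (no normalization), Saa4 between 162 and 54 µg to -0.10 (no normalization), -0.0682 (deposited table) and -0.0589 (without the arrays of high albumin), and Saa4 in Cy5 alone to -0.37 (54 against 18 µg) and -0.19 (162 against 18 µg).

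Leaving out 1 mouse at a time gave 1.77 to 2.50 for Saa1, 1.16 to 1.80 for Saa2 and 3.91 to 5.08 for Saa3 at 18 µg. At 54 µg it gave 2.83 to 3.78, 2.13 to 3.101 and 4.71 to 5.79, and at 162 µg 3.35 to 4.15, 3.65 to 4.39 and 6.07 to 7.20. Saa3 lost its call at 18 µg without control replicate 1 or 5, and at 54 µg without control replicate 1 or 5 or 54 µg replicate 2 or 4. Saa1 at 54 µg lost it without control replicate 1 or 5 or 54 µg replicate 4. Called probes ranged from 0 to 3 at 18 and 54 µg and stayed at 3 at 162 µg, pathway genes from 0 to 9, 2 to 9 and 15 to 22, and calls between doses from 0 to 3. Between 162 and 18 µg Saa1 ran from 1.29 to 1.90 (lost in 8 fits), Saa2 from 2.20 to 3.08 and Saa3 from 1.40 to 2.45, and between 162 and 54 µg Saa1 ran from -0.0235 to 1.08 and Saa4 from -0.0137 to 0.13.

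Deviations of same-numbered mice correlated at a median of 0.209 over 31 pairs, of which 18 exceeded 0.1, against -0.0653 for other numbers. The median was 0.303 where such mice shared a slide and 0.0854, with 9 of 20 pairs over 0.1, where they did not. As not every pair exceeded 0.1 and the labels tie the numbers to nothing shared, the replicate block is an alternative only.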
